A study of Mus musculus with 42 samples.

Results

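The 41 genes described here are transcripts best known from neurons: parts of the synaptic vesicle and of the synapse, the axonal cytoskeleton, neuronal RNA-binding proteins and neuropeptides. They were followed through RNA-seq of microglia sorted by the proliferation protein Ki67. Members were taken by gene name from a fixed list, and all 41 listed names were found among the 19151 genes of the expression table. The list was chosen with earlier results of these data known, so shares set beside those of all genes are descriptive. The question was whether the neuronal genes moved together or one by one with the Ki67 state of the sorted cells.

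The series held 42 libraries in 12 groups, made from male C57BL/6 wild-type (WT) mice and APP/PS1 mice, which carry transgenes for mutant human amyloid precursor protein and presenilin 1 and deposit amyloid-β with age. At 4, 6 and 12 months, CD11b and CD45 positive brain cells were fixed in paraformaldehyde, stained for Ki67 in the nucleus, and sorted into Ki67+ (proliferating) and Ki67- (non-proliferating) microglia, up to 400 cells per library. The 4-month set had 5 Ki67+ and 5 Ki67- WT libraries and 4 APP/PS1 libraries of each sort. The 6-month set had 2 Ki67+ and 3 Ki67- WT libraries and 2 APP/PS1 libraries of each sort, and the 12-month set 4 Ki67+ and 3 Ki67- WT libraries and 4 APP/PS1 libraries of each sort.

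At a chemical synapse, synaptic vesicles filled with transmitter fuse with the membrane through SNARE proteins such as SNAP-25 once synaptotagmin senses calcium, and the transmitter opens receptors held in place by a postsynaptic scaffold. Microtubule-associated proteins and neurofilaments support the long processes that carry these synapses, and RNA-binding proteins of the ELAV and RBFOX families shape neuronal messages. Microglia are the resident macrophages of the brain, do not form synapses, and take up material from neurons and other cells. Several of these genes are also transcribed in astrocytes and other glia.

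Levels are given on the log2-like scale of the deposited table. The scale is read as a score, because 10 surrogate variables were removed, so a difference of 1 need not be an exact doubling of transcript. The values are not per unit of transcript length, so no order between genes was read from them. Read depth cannot be read from them either, and no gene is listed at 0: values ran from 3.07 to 18.3 around a median of 7.4, and the 41 members had means over all libraries from 6.57 (Nefm) to 8.93 (Dclk1). Cd3e, a peripheral immune marker, had a mean of 6.46 and the neuropeptide gene Vip of 6.39. Some WT Ki67+ values of 6 months lay below both, such as 3.89 for Meg3 and 4.51 for Camk2b. So did the medians over all Ki67- libraries of Gria1 (6.14), Syn1 (6.28), Nrgn (6.33) and Slc17a7 (6.36). APP/PS1 Ki67+ cells of 6 months had means of 5.44 for Snap25 and 5.39 for Slc17a7. How far values that low measure transcript was not tested, so calls that rest on them are differences in score. A difference was called when its adjusted p from limma, with Benjamini-Hochberg adjustment over all 19151 genes, was below 0.05. As bulk RNA was measured, fewer cells of a type and less RNA per cell cannot be told apart. Microglial markers were high throughout, with a mean over 15 of them of 11.94 to 13.65 in every library. The Mki67 transcript did not follow the protein sort: it ranged from 6.73 to 9.37 in Ki67+ and from 6.96 to 8.84 in Ki67- libraries, was higher in Ki67+ cells at 4 months in APP/PS1 mice (1.26 ± 0.41 SE, adjusted p = 0.0337, limma) and lower at 12 months in WT mice (-1.09 ± 0.44, adjusted p = 0.0497, limma), and was not called in the other 4 comparisons. Birc5, another cell cycle gene, was higher in Ki67+ cells in the average of the 6 comparisons by 2.22 ± 0.15 (adjusted p = 2.26e-11, limma). The 3 WT Ki67- libraries of 12 months were unusually alike, with a median SD of 0.0397 over the members and 0.0259 over all genes, against 0.149 to 0.582 for the members in the other 11 groups. They were counted as 3 libraries, as labelled, since sampling noise cannot be computed for such values. Leaving 1 of these 3 out is therefore a weak check. WT Ki67- replicates 1 and 2 of 4 months were also close, at 7.95 and 7.97 for Mki67 and 8.81 and 8.77 for the mean of the oligodendrocyte markers. Replicates 3, 4 and 5 were at 8.37, 7.63 and 8.31 for Mki67 and 8.94, 8.55 and 9.01 for that mean. All 5 were counted as libraries.

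The members did not move as a block with Ki67 state. In WT microglia at 4 months, 17 of the 41 members were higher in Ki67+ than in Ki67- cells and 3 were lower, where 17.1% of all genes were higher and 13.5% lower. At 6 months the balance lay the other way, with 5 members higher (15.3% of all genes) and 16 lower (18.2%). At 12 months, 21 were higher (23.2%) and 4 lower (18.2%). In APP/PS1 microglia, 7 were higher (10.0%) and 2 lower (7.94%) at 4 months, 5 higher (4.13%) and 2 lower (1.96%) at 6 months, and 15 higher (8.88%) and 1 lower (6.09%) at 12 months. As a share of the 41, the members that were higher exceeded the share of all genes in every comparison except WT mice at 6 months. The members that were lower exceeded it at 6 months in both genotypes and fell short of it in the other 4 comparisons. The median difference of the 41 members at 4, 6 and 12 months was 0.6, -0.63 and 1.07 in WT and 0.28, -0.37 and 0.68 in APP/PS1 mice, beside medians of all genes from -0.05 to 0.05. With library medians subtracted, the APP/PS1 counts became 5 higher and 4 lower at 6 months and 15 higher and 4 lower at 12 months. The median over all genes was higher in Ki67+ than in Ki67- libraries in 5 of the 6 comparisons, at 7.51 against 7.37 and 7.50 against 7.28 in WT mice at 4 and 12 months and at 7.48 against 7.37, 7.38 against 7.30 and 7.45 against 7.30 in APP/PS1 mice by age, and was 7.32 against 7.34 in WT mice at 6 months.

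Sorted by their calls over the 6 comparisons, which share no library, 4 members (9.76%) were higher in Ki67+ cells in every one, as 1.36% of all genes were. Another 12 (29.3%) were higher in at least 1 and lower in none, near the 31.4% of all genes. A further 10 (24.4%) were lower in at least 1 and higher in none (29.3% of all genes), and 7 (17.1%) were called in none (36.1%). The remaining 8 members (19.5%) were called in both directions, as 1.83% of all genes were. These counts leaned on the 6-month libraries. Without WT Ki67+ replicate 2 of 6 months 5 members were called in both directions (1.54% of all genes), 4 of them among the 8, and without APP/PS1 Ki67- replicate 1 or APP/PS1 Ki67+ replicate 2 of 6 months 2 members, Dclk1 and Lsamp, were higher in every comparison (0.914% and 0.7% of all genes). With the 6 differences averaged, 18 members were higher (31.3% of all genes) and 8 lower (29.2%). That average joins opposite directions: without the 6-month libraries, 26 members were higher and 6 lower, where 34.3% and 28.9% of all genes were, and the 23 members called in both averages had the same direction in each. Snap25, Syp, Stmn2, Stmn3, Celf4, Meg3, Snhg11 and Nrxn3 were higher and Elavl3 lower in that average and not in the average of 6, and Gad2, Camk2a and Eno2 were lower in the average of 6 alone.

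**Figure D1:**
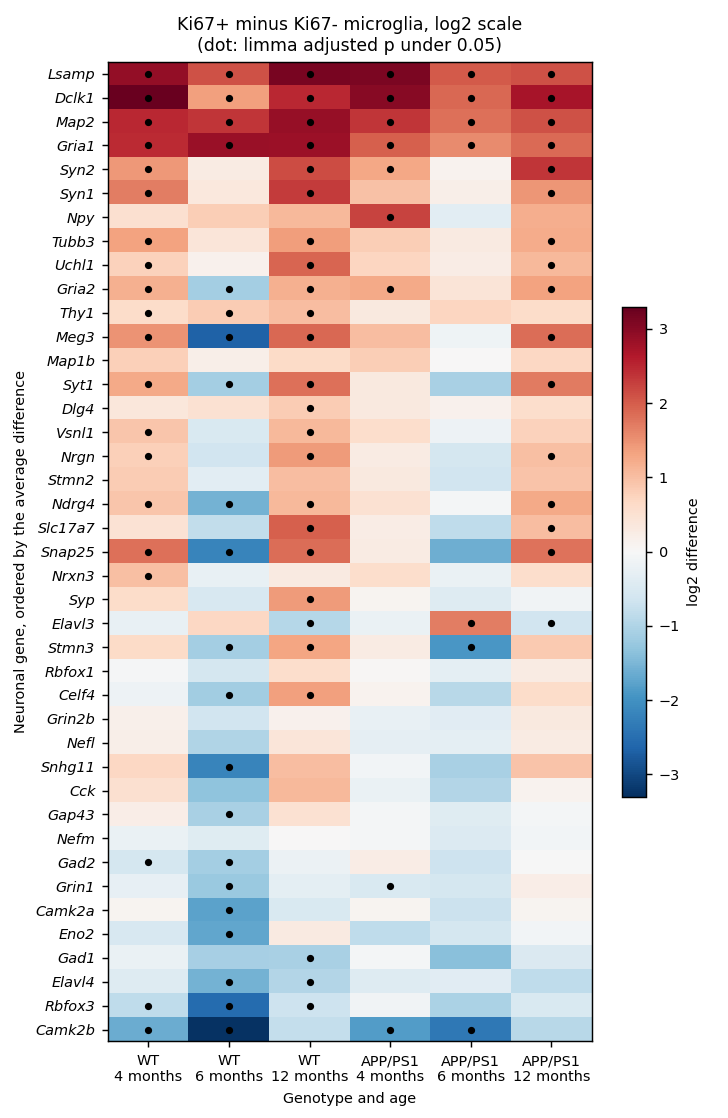
Difference between Ki67+ and Ki67- microglia (log2 scale, colour) for the 41 neuronal and synaptic genes (rows, ordered by their average difference) in the 6 comparisons of genotype and age (columns). A dot marks an adjusted p below 0.05. Lsamp, Dclk1, Map2 and Gria1 carry a dot and a positive difference in all 6 columns, Camk2b a negative difference in all 6 with 4 dots, and both 6-month columns hold mostly negative values, with 13 of 41 members positive in each.

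The 4 members higher in every comparison were Lsamp, Dclk1, Map2 and Gria1, and for each of them all 21 Ki67+ libraries lay above the highest of the 21 Ki67- libraries. Lsamp, which encodes the limbic system associated membrane protein, a cell adhesion molecule, ranged from 8.8 through a median of 10.15 to 10.83 in Ki67+ and from 6.68 through 7.31 to 8.05 in Ki67- libraries. Its 6 differences ran from 2.02 ± 0.32 (SE) in APP/PS1 mice at 6 months to 3.13 ± 0.25 in WT mice at 12 months, and the highest adjusted p of the 6 was 0.000478 (limma). Lsamp kept its call in each comparison whichever single library was left out.

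Dclk1, a doublecortin-like kinase bound to microtubules, ranged from 8.8 through 10.46 to 11.55 in Ki67+ and from 6.8 through 7.46 to 8.53 in Ki67- libraries. Its difference was widest in WT mice at 4 months, at 3.25 ± 0.24 (adjusted p = 4.05e-09, limma), and narrowest in WT mice at 6 months, at 1.36 ± 0.35 (adjusted p = 0.00439). In that narrowest comparison the Ki67+ libraries were at 9.34 and 8.82 and the Ki67- libraries at 7.7, 7.08 and 8.37. The groups did not overlap there, but the call was lost without WT Ki67+ replicate 1 (adjusted p = 0.0624).

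Map2, which stabilises microtubules in dendrites, ranged from 8.29 through 9.16 to 9.75 in Ki67+ and from 6.52 through 6.59 to 7.91 in Ki67- libraries. Of the Ki67- libraries, APP/PS1 replicate 3 at 12 months stood apart at 7.91, with the other 3 of its group at 6.69, 6.75 and 6.56. Differences lay between 1.83 ± 0.40 in APP/PS1 mice at 6 months (adjusted p = 0.00649, limma) and 2.87 ± 0.30 in WT mice at 12 months (adjusted p = 3.41e-07). Gria1, the GluA1 subunit of AMPA-type glutamate receptors, ranged from 7.58 through 8.45 to 9.55 in Ki67+ and from 5.95 through 6.14 to 6.72 in Ki67- libraries. Its widest difference was in WT mice at 6 months, where 16 members were lower and 5 higher: the Ki67+ libraries were at 8.94 and 9.55 and the Ki67- libraries at 6.11, 6.35 and 6.7, a difference of 2.86 ± 0.34 (adjusted p = 2.1e-06, limma). The APP/PS1 calls at 6 months, with 2 libraries a group, were the least firm. Both were lost without APP/PS1 Ki67- replicate 1 or without APP/PS1 Ki67+ replicate 2. The lower difference of these was 1.61 for Map2 (highest adjusted p = 0.0894) and 1.38 for Gria1 (highest adjusted p = 0.133), both without Ki67+ replicate 2.

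Astrocyte markers moved in the same direction as these 4 genes. Of 16 astrocyte markers, at 4, 6 and 12 months 16, 8 and 15 were higher in WT and 16, 11 and 16 in APP/PS1 Ki67+ cells, and none was lower (limma). The mean level of the 16 ran from 9.56 to 11.73 in Ki67+ and from 7.48 to 8.89 in Ki67- libraries, without overlap. Slc1a2, the main glutamate transporter of astrocytes, had the widest average difference of the 16 at 4.50 ± 0.20 (adjusted p = 7.98e-14, limma). The mean of the 4 neuronal genes ran from 8.39 to 10.01 in Ki67+ and from 6.58 to 7.47 in Ki67- libraries. The astrocyte markers' part in the result was not tested.

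By annotation (GENCODE M21, GRCm38) the 4 genes are long. Lsamp spans chr16:39984361-42181679, Dclk1 chr3:55242364-55539068, Map2 chr1:66175273-66442583 and Gria1 chr11:57011387-57330244, all on the plus strand. Their spans had a median of 308 kb, and all 4 exceeded 100 kb, as did 10 of the 37 other members, whose median was 48.9 kb. RefSeq promoter windows of the same assembly (GRCm38.p6) were at hand for 31 of the 41 members. The 5 below show the 250 bases before the annotated start for 3 genes that were higher in every comparison (none was at hand for Gria1), for Gria2, the receptor partner of Gria1 whose direction changed with age in WT mice, and for Camk2b, which had the largest negative difference. Capitals mark GCTGTCC, the reverse complement of GGACAGC, the right part of the RE1 element bound by REST, a repressor of neuronal genes in other cell types.
Map2, chr1:66175079-66175328, plus strand: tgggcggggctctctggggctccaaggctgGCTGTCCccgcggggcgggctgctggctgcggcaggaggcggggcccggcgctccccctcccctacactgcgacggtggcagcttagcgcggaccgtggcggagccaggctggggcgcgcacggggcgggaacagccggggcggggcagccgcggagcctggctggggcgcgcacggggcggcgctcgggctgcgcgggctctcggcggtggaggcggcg
Dclk1, chr3:55242114-55242363, plus strand: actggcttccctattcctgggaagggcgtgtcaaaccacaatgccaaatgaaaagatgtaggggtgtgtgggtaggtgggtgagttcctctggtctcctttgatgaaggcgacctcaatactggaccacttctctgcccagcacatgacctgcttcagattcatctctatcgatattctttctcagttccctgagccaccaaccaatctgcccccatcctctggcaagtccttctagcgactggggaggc
Lsamp, chr16:39984114-39984363, plus strand: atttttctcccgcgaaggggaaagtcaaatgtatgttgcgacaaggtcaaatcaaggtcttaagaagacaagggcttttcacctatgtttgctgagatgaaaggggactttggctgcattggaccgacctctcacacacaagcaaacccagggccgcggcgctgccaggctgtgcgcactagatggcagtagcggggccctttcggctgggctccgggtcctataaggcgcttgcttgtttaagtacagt
Gria2, chr3:80802836-80803085, minus strand: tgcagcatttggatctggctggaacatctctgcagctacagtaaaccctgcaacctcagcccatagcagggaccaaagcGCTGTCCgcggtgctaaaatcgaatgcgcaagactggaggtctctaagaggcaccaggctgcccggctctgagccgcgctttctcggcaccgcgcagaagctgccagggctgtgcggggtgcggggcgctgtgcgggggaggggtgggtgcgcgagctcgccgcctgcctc
Camk2b, chr11:6065749-6065998, minus strand: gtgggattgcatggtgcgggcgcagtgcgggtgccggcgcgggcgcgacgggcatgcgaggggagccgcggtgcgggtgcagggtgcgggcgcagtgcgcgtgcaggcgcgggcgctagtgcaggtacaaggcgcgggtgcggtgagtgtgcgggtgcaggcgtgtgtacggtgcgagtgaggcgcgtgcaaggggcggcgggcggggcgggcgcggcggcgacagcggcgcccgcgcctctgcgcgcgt

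Over windows of 300 bases (250 before the start and 50 after it, both strands searched), GGACAGC lay in those of 4 of 31 members, Gad2, Gria2, Map2 and Tubb3, and of 7.59% of all 27025 genes searched, where a gene counted once if any of its windows held the letters. The 31 members had 48 windows and all genes 32851. The left part of RE1, TTCAGCACC, lay in that of Syn1 alone and of 0.433% of all genes. The cAMP response element TGACGTCA lay in those of Syn1 and Meg3 and of 2.03% of all genes, and TATAAA in those of 6 members and 15.7% of all genes. The GC box GGGCGG lay in those of 17 of 31 members (54.8%), Map2 and Camk2b among them, and of 38.2% of all genes.

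Among the 5 genes of the vesicle and its release machinery, Syn1, Syn2 and Syt1 were higher in Ki67+ cells in the average of the 6 comparisons, and Snap25 and Syp were not called. Syn2, which encodes a synapsin that tethers vesicles, ranged from 6.57 through 8.11 to 9.66 in Ki67+ and from 5.98 through 6.56 to 7.29 in Ki67- libraries. It was higher by 1.44 ± 0.31 at 4 months and 2.14 ± 0.37 at 12 months in WT mice and by 1.27 ± 0.34 and 2.35 ± 0.34 in APP/PS1 mice (highest adjusted p = 0.0123, limma). At 6 months its differences were 0.27 ± 0.44 and 0.11 ± 0.48, and neither was called. Syn1, the other synapsin, ranged from 5.73 through 7.52 to 8.74 in Ki67+ and from 5.74 through 6.28 to 6.81 in Ki67- libraries, and was higher on average by 1.16 ± 0.16 (adjusted p = 1.8e-06, limma).

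Snap25, a SNARE protein, changed sides with age. In WT mice at 4 months its Ki67+ libraries were at 9.03, 8.51, 9.34, 9.88 and 9.14 and its Ki67- libraries at 7.59, 7.61, 7.11, 7.36 and 7.14, a difference of 1.82 ± 0.38 (adjusted p = 0.000996, limma). At 6 months the Ki67+ libraries were at 5.82 and 4.62 and the Ki67- libraries at 7.27, 7.16 and 7.74, a difference of -2.17 ± 0.55 (adjusted p = 0.00418). At 12 months they were at 9.1, 8.55, 8.9 and 9.93 against 7.35, 7.28 and 7.21, a difference of 1.84 ± 0.46 (adjusted p = 0.00279). Within each age the Ki67 groups did not overlap, but they lay in opposite order at 6 months. The 6-month call rested on 1 library: without WT Ki67+ replicate 2 the difference was -1.57 (adjusted p = 0.0948). In APP/PS1 mice the difference was 0.28 ± 0.43 at 4 months, where the Ki67+ libraries ran from 6.21 to 8.46, -1.60 ± 0.60 at 6 months (adjusted p = 0.123) and 1.80 ± 0.43 at 12 months (adjusted p = 0.00632, limma).

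Syt1, the calcium sensor of release, had the same pattern in WT mice, at 1.26 ± 0.26, -1.11 ± 0.38 and 1.83 ± 0.32 at 4, 6 and 12 months (highest adjusted p = 0.0267, limma), from libraries of 5.23 through 8.03 to 8.82 in all Ki67+ and 6.21 through 6.69 to 6.99 in all Ki67- groups. Its 6-month call was lost without WT Ki67+ replicate 1 (-0.88, adjusted p = 0.176) and without WT Ki67- replicate 1. Syp, synaptophysin of the vesicle membrane, overlapped almost wholly, from 6.02 through 7.28 to 8.38 in Ki67+ and from 6.56 through 6.98 to 7.72 in Ki67- libraries. It was called only in WT mice at 12 months, where Ki67+ libraries at 7.93, 7.7, 8.38 and 7.88 lay above Ki67- libraries at 6.57, 6.57 and 6.56 (1.41 ± 0.34, adjusted p = 0.00207, limma).

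Of the 3 genes of transmitter synthesis and loading, Gad1 and Gad2, the 2 forms of the enzyme that makes GABA, were lower on average and Slc17a7, the vesicular glutamate transporter VGLUT1, was higher. Gad1 ranged from 5.03 through 6.75 to 8.1 in Ki67+ and from 6.93 through 7.35 to 7.66 in Ki67- libraries, with 13 Ki67+ libraries below the lowest Ki67- one (-0.72 ± 0.18, adjusted p = 0.0013, limma). Gad2 ranged from 5.44 through 6.73 to 7.71 against 6.7 through 6.99 to 7.38 (-0.39 ± 0.09, adjusted p = 0.000431). The fall in Gad2 was called in WT mice at 4 months (-0.59 ± 0.17, adjusted p = 0.0107) and 6 months (-1.13 ± 0.24, adjusted p = 0.00102), and without the 6-month libraries its average was -0.14 and not called. Slc17a7 ranged from 4.64 through 6.95 to 8.82 against 6.16 through 6.36 to 6.93, and its average of 0.34 ± 0.15 only just passed (adjusted p = 0.047, limma): the call was lost when any of 19 libraries was left out, with values from 0.21 to 0.47. It was higher at 12 months in WT mice by 1.98 ± 0.34 (adjusted p = 9.27e-05) and in APP/PS1 mice by 1.01 ± 0.32 (adjusted p = 0.0339), the latter lost without any of 5 libraries (highest adjusted p = 0.0801).

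The 4 glutamate receptor subunits differed among themselves. Gria1 was higher in every comparison, as above. Gria2, the GluA2 subunit that makes AMPA receptors impermeable to calcium, ranged from 6.89 through 9.14 to 9.75 in Ki67+ and from 7.48 through 7.97 to 8.73 in Ki67- libraries, and was higher at 4 and 12 months in both genotypes, by 1.18 ± 0.21 to 1.33 ± 0.23 (highest adjusted p = 0.000758, limma). At 6 months in WT mice its Ki67+ libraries were at 7.6 and 6.89 and its Ki67- libraries at 8.7, 7.97 and 8.42, a difference of -1.12 ± 0.30 (adjusted p = 0.00652) that was not called without WT Ki67+ replicate 2 (-0.76, adjusted p = 0.137). In the same 5 libraries the 2 AMPA receptor subunits thus lay in opposite order. In APP/PS1 mice at 6 months Gria2 had means of 8.1 in Ki67+ and 7.68 in Ki67- cells and was not called.

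Grin1, the obligate GluN1 subunit of NMDA receptors, was lower on average, from 5.37 through 6.8 to 7.26 in Ki67+ and from 6.56 through 6.98 to 7.56 in Ki67- libraries (-0.45 ± 0.07, adjusted p = 1.43e-05, limma). Its widest difference was at 6 months in WT mice, where Ki67+ libraries at 5.95 and 5.37 lay below Ki67- libraries at 7.02, 6.75 and 6.87 (-1.22 ± 0.20, adjusted p = 8.88e-05), and this call held without any 1 library. The call in APP/PS1 mice at 4 months (-0.51 ± 0.16, adjusted p = 0.0266) was lost without any of 3 libraries, Ki67- replicate 1 and Ki67+ replicates 3 and 4 (highest adjusted p = 0.0774). Grin2b, the GluN2B subunit, was called in no comparison, with libraries of 6.33 through 7.25 to 7.93 and 6.43 through 7.14 to 7.65 and an average difference of -0.10 ± 0.12 (adjusted p = 0.474).

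Camk2b, the β chain of the calcium/calmodulin-dependent kinase CaMKII, had the largest negative average difference of the 41 members. It ranged from 4.51 through 6.99 to 7.84 in Ki67+ and from 7.72 through 8.43 to 9.17 in Ki67- libraries, and 19 of 21 Ki67+ libraries lay below the lowest Ki67- one (-1.80 ± 0.15, adjusted p = 1.46e-09, limma). In WT mice at 6 months its Ki67+ libraries were at 4.92 and 4.51 and its Ki67- libraries at 8.25, 7.72 and 7.99 (-3.27 ± 0.43, adjusted p = 6.84e-06). The fall was called at 4 and 6 months in both genotypes. At 12 months, differences of -0.79 ± 0.36 in WT (adjusted p = 0.0843) and -0.92 ± 0.33 in APP/PS1 mice (adjusted p = 0.0639) were not called, although the Ki67 groups did not overlap in either. In APP/PS1 mice at 6 months (-2.36 ± 0.47, adjusted p = 0.00318) the call was lost without Ki67- replicate 1 (-1.74, adjusted p = 0.0765).

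Camk2a, the α chain of the same kinase, overlapped between the sorts (5.14 through 7.18 to 8.03 in Ki67+ and 6.53 through 7.17 to 8 in Ki67- libraries). It was called lower in WT mice at 6 months, with Ki67+ libraries at 5.54 and 5.14 and Ki67- libraries at 7.73, 7.07 and 6.53 (-1.77 ± 0.45, adjusted p = 0.00428, limma), and on average (-0.45 ± 0.16, adjusted p = 0.0189). The average was not called without APP/PS1 Ki67+ replicate 1 of 6 months (adjusted p = 0.052), and was -0.06 without the 6-month libraries. Nrgn, neurogranin, which binds calmodulin in dendritic spines, ran from 5.35 through 6.99 to 8.17 in Ki67+ and from 6.12 through 6.33 to 6.58 in Ki67- libraries. It was higher in WT mice at 4 and 12 months and in APP/PS1 mice at 12 months, by 0.79 ± 0.17 to 1.41 ± 0.21 (highest adjusted p = 0.00142, limma). Dlg4, the scaffold protein PSD-95, was higher on average by 0.46 ± 0.11 (adjusted p = 0.000756) and called singly in WT mice at 12 months.

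**Figure D2:**
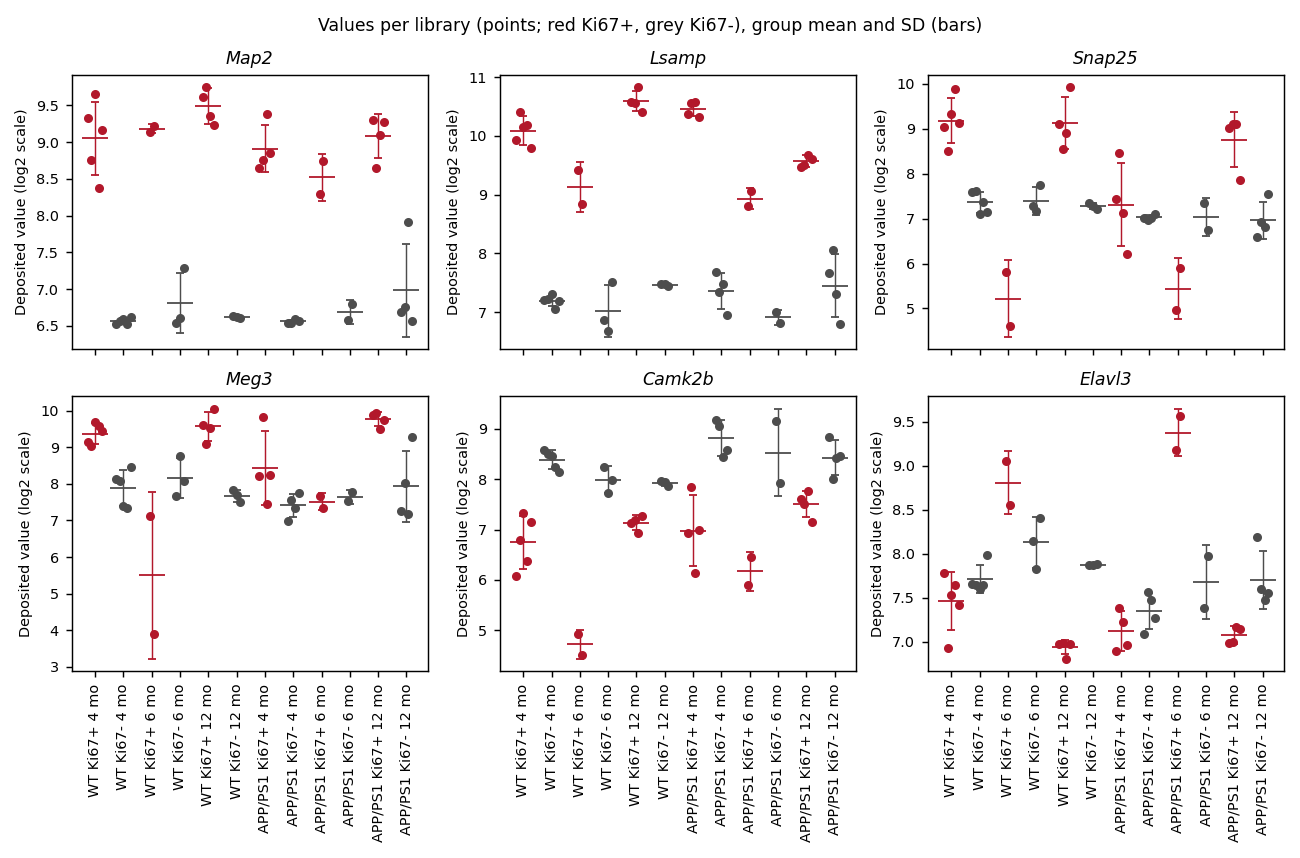
Level of Map2, Lsamp, Snap25, Meg3, Camk2b and Elavl3 (log2-like scale) in each library of the 12 groups of genotype, age and Ki67 state, with bars for the group mean and SD. Map2 and Lsamp are higher in Ki67+ libraries at every age, Camk2b is lower, and Snap25 and Meg3 are higher at 12 months and lower in WT mice at 6 months, where Elavl3 is high.

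Of the 9 genes of the axon, microtubules and neurofilaments, Dclk1, Map2, Tubb3 and Map1b were higher on average, and Stmn2, Stmn3, Nefl, Nefm and Gap43 were not called. Tubb3, the neuronal β-tubulin, was higher by 0.91 ± 0.17 (adjusted p = 0.000104, limma), with 16 of 21 Ki67+ libraries above the highest Ki67- one, and Map1b, a microtubule-associated protein of growing axons, by 0.52 ± 0.17 (adjusted p = 0.00953). Stmn3, a stathmin that binds free tubulin, had an average of 0 ± 0.15 (adjusted p = 0.994) made of opposite calls, from libraries of 5.26 through 7.68 to 9.16 in Ki67+ and 6.45 through 7.13 to 8.21 in Ki67- groups. It was higher in WT mice at 12 months (1.30 ± 0.36, adjusted p = 0.00579) and lower at 6 months in WT (-1.12 ± 0.43, adjusted p = 0.0467) and APP/PS1 mice (-1.93 ± 0.47, adjusted p = 0.0141). Both 6-month calls depended on single libraries. The WT difference was not called without either Ki67+ library or without Ki67- replicate 1 or 3 (-0.89 at the least, highest adjusted p = 0.198), and the APP/PS1 difference not without Ki67+ replicate 1 or Ki67- replicate 2 (-1.18 at the least, highest adjusted p = 0.222).

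The neurofilament genes Nefl and Nefm, light and medium chain, had average differences of -0.12 ± 0.14 and -0.21 ± 0.09 (adjusted p = 0.444 and 0.0528, limma) and were called in no comparison. Nefl lies within the annotated span of Nefm on the opposite strand (chr14:68083863-68089095), and their annotated transcripts shared 1078 stretches of 31 bases, of 3350 in Nefl, when both strands were compared. Whether the counting used strand is not given in the sources used here, so the split of reads between this pair is uncertain. Gap43, of the growth cone, was lower in WT mice at 6 months alone (-1.08 ± 0.40, adjusted p = 0.0427), a call lost without Ki67+ replicate 2, Ki67- replicate 1 or Ki67- replicate 2 (-0.76 at the least, highest adjusted p = 0.295). Stmn2 had an average of 0.36 ± 0.18 (adjusted p = 0.0853).

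None of the 7 RNA-binding protein and long noncoding RNA genes was higher on average, and Rbfox3 and Elavl4 were lower (limma, 7 tested). Without the 6-month libraries Meg3 (1.56, adjusted p = 1.43e-06), Snhg11 (0.64, adjusted p = 0.00161) and Celf4 (0.48, adjusted p = 0.00809) were higher on average and Elavl3 was lower (-0.51, adjusted p = 2.18e-05). Rbfox3, the splicing factor known as NeuN, ranged from 4.83 through 6.62 to 7.42 in Ki67+ and from 6.76 through 7.33 to 8 in Ki67- libraries, with 14 of 21 Ki67+ libraries below the lowest Ki67- one (-0.96 ± 0.10, adjusted p = 5.56e-08). In WT mice it was lower at all 3 ages, by the most at 6 months, where Ki67+ libraries were at 5.22 and 4.83 and Ki67- libraries at 7.33, 7.39 and 8 (-2.55 ± 0.29, adjusted p = 1.2e-06, limma). The 12-month call (-0.69 ± 0.24, adjusted p = 0.0256) was lost without Ki67- replicate 1, Ki67- replicate 2 or Ki67+ replicate 4 (highest adjusted p = 0.0601). Rbfox3 was called at no age in APP/PS1 mice. Elavl4, the RNA stabiliser HuD, ran from 5.78 through 7.31 to 8.1 in Ki67+ and from 7.03 through 7.83 to 8.46 in Ki67- libraries (-0.76 ± 0.15, adjusted p = 0.000121).

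Elavl3, HuC, was higher in Ki67+ cells at 6 months in 1 genotype and lower at 12 months in both. In APP/PS1 mice at 6 months its Ki67+ libraries were at 9.18 and 9.57 and its Ki67- libraries at 7.39 and 7.98, a difference of 1.69 ± 0.29 (adjusted p = 0.000929, limma). At 12 months it was lower in Ki67+ cells, with WT libraries at 6.97, 6.99, 6.81 and 6.98 against 7.87, 7.87 and 7.88 (-0.94 ± 0.22, adjusted p = 0.00193) and APP/PS1 libraries at 6.99, 7, 7.17 and 7.15 against 8.19, 7.6, 7.48 and 7.55 (-0.63 ± 0.21, adjusted p = 0.0435). The 12-month groups did not overlap in either genotype, but the APP/PS1 call was lost without any of 5 libraries (highest adjusted p = 0.137). Celf4, a regulator of synaptic messages, ran from 6.68 through 7.47 to 8.53 in Ki67+ and from 6.73 through 7.39 to 8.24 in Ki67- libraries. It was higher in WT mice at 12 months (1.36 ± 0.34, adjusted p = 0.00293, limma) and lower at 6 months (-1.14 ± 0.41, adjusted p = 0.0351), the latter lost without any of 4 libraries (highest adjusted p = 0.12). Rbfox1 was called nowhere, with 5.8 through 7.11 to 7.91 in Ki67+ and 6.62 through 7.07 to 7.63 in Ki67- libraries and an average of 0 ± 0.11 (adjusted p = 0.976).

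The imprinted long noncoding RNA Meg3 had the widest range of the list among Ki67+ libraries, from 3.89 through 9.45 to 10.05 in Ki67+ and from 6.99 through 7.7 to 9.27 in Ki67- libraries. It was higher in WT mice at 4 months (1.49 ± 0.50, adjusted p = 0.0271) and 12 months (1.89 ± 0.60, adjusted p = 0.0152) and in APP/PS1 mice at 12 months (1.84 ± 0.56, adjusted p = 0.0293, limma). In WT mice at 6 months its Ki67+ libraries were at 7.11 and 3.89, far apart, and its Ki67- libraries at 7.68, 8.75 and 8.07. That difference of -2.67 ± 0.72 (adjusted p = 0.0066) became -1.06 (adjusted p = 0.321) without the lower library, WT Ki67+ replicate 2. The 4-month call was lost without WT Ki67- replicate 3 or 4 (highest adjusted p = 0.0573) and the APP/PS1 call without any of 4 libraries (highest adjusted p = 0.0748). Snhg11, a brain-enriched noncoding RNA, was alike: 4.83 through 8.83 to 10.12 in Ki67+ and 7.65 through 8.14 to 8.62 in Ki67- libraries, and called in WT mice at 6 months alone, at 7.26 and 4.83 against 8.14, 8.26 and 8.32. Its difference there of -2.19 ± 0.54 (adjusted p = 0.00326, limma) was -0.97 (adjusted p = 0.205) without WT Ki67+ replicate 2.

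**Figure D3:**
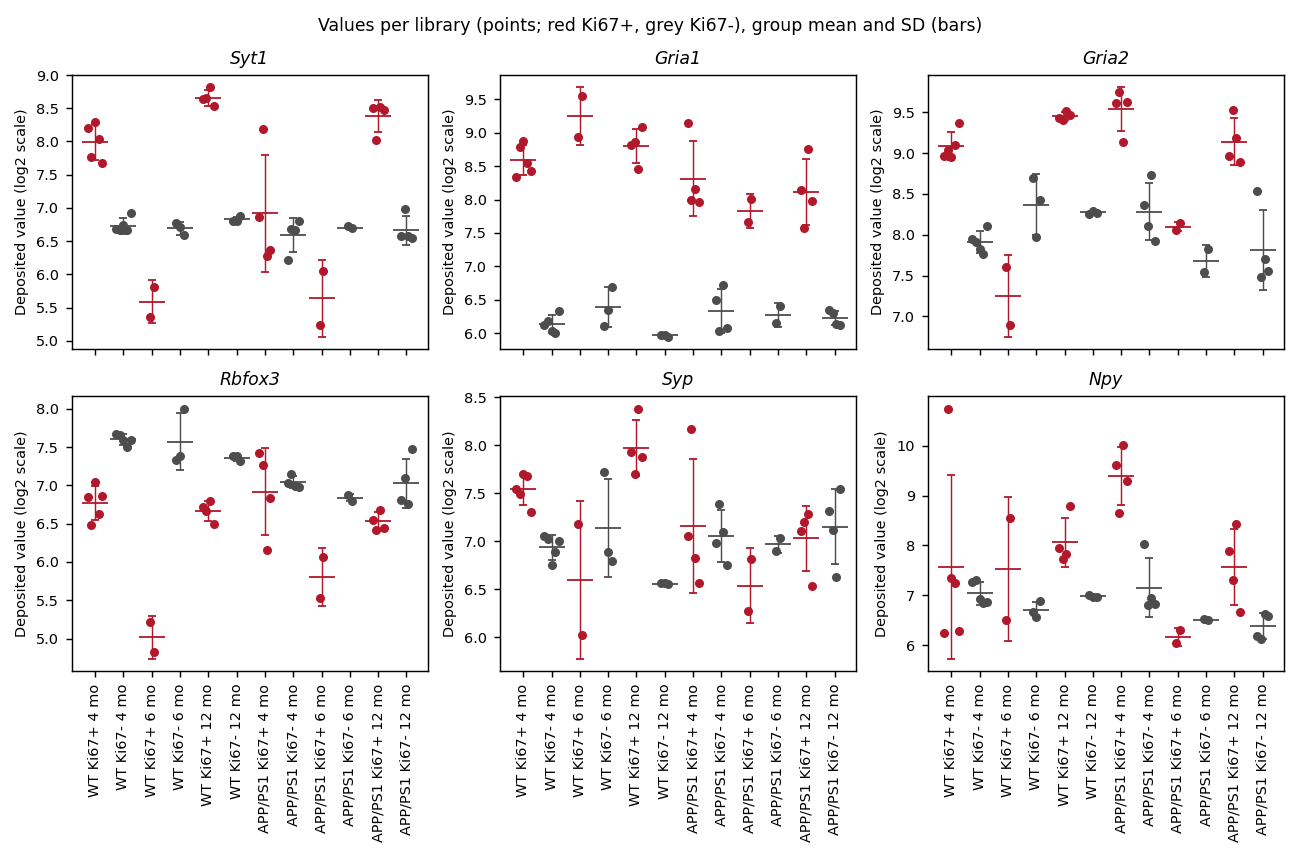
Level of Syt1, Gria1, Gria2, Rbfox3, Syp and Npy (log2-like scale) in each library of the 12 groups, with bars for the group mean and SD. Gria1 is higher in Ki67+ libraries in all 6 comparisons, Gria2 and Syt1 fall below the Ki67- libraries in WT mice at 6 months, and Npy spans 6.04 to 10.74 among Ki67+ libraries.

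Among the adhesion and surface genes, Lsamp was higher throughout, Thy1 was higher on average and Nrxn3 was not called on average. Thy1, a glycolipid-anchored surface protein, was higher by 0.68 ± 0.10 (adjusted p = 3.23e-06, limma), and in WT mice by 0.60 ± 0.19, 0.84 ± 0.28 and 1.02 ± 0.23 at the 3 ages in order. Its calls at 4 and 6 months were lost without WT Ki67+ replicate 1 of 4 months (highest adjusted p = 0.0551) and WT Ki67+ replicate 1 of 6 months (0.52, adjusted p = 0.259). Nrxn3, a presynaptic neurexin, ranged from 6.06 through 7.53 to 9.09 in Ki67+ and from 6.27 through 6.83 to 7.5 in Ki67- libraries. It was called in WT mice at 4 months alone (0.99 ± 0.32, adjusted p = 0.0221), and not without WT Ki67+ replicate 5 of 4 months (0.71, adjusted p = 0.0677).

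Of the soluble enzymes and calcium sensors, Uchl1, Vsnl1 and Ndrg4 were higher on average and Eno2 was lower. Uchl1, an abundant neuronal ubiquitin hydrolase, ran from 5.98 through 7.48 to 9.22 in Ki67+ and from 6.29 through 6.54 to 7.22 in Ki67- libraries (0.81 ± 0.15, adjusted p = 6.73e-05, limma). Eno2, the neuronal enolase of glycolysis, ran from 5.12 through 6.98 to 8.12 against 7.03 through 7.34 to 8.27, with 11 Ki67+ libraries below the lowest Ki67- one (-0.57 ± 0.14, adjusted p = 0.00145). It was called singly in WT mice at 6 months (-1.71 ± 0.40, adjusted p = 0.00225), not without WT Ki67+ replicate 2 (-1.36, adjusted p = 0.0507), and its average without the 6-month libraries was -0.29 and not called. Ndrg4 was the firmest of the members that changed sides. Its Ki67+ libraries in WT mice were at 8.06, 7.84, 8.48, 8.24 and 8.08 at 4 months, at 5.74 and 5.48 at 6 months and at 8.27, 8.26, 8.04 and 8.73 at 12 months, while its Ki67- libraries lay between 6.93 and 7.51 in all groups. The differences of 0.91 ± 0.21, -1.57 ± 0.31 and 1.07 ± 0.26 (highest adjusted p = 0.00241, limma) kept their calls without any 1 library. Vsnl1, a calcium sensor, had an average of 0.44 ± 0.13 (adjusted p = 0.00657).

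Both neuropeptide genes varied widely within groups. Npy, neuropeptide Y, ranged from 6.04 through 7.82 to 10.74 in Ki67+ and from 6.13 through 6.85 to 8.03 in Ki67- libraries, with an average difference of 0.92 ± 0.31 (adjusted p = 0.0143, limma). It was called in APP/PS1 mice at 4 months (2.24 ± 0.68, adjusted p = 0.0239), but not without Ki67- replicate 2 or Ki67+ replicate 3 of that group pair (highest adjusted p = 0.0569). Cck, cholecystokinin, ran from 4.78 through 7.37 to 8.26 against 6.25 through 6.89 to 8.31 and was called in no comparison (average -0.13 ± 0.20, adjusted p = 0.601).

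Within a Ki67+ group many members had their highest value in the same library. One library held the highest value of its group for 22 of 41 members in WT mice at 4 months (replicate 3 of 5), 33 at 6 months (replicate 1 of 2) and 23 at 12 months (replicate 4 of 4). For APP/PS1 mice the 4-month library held 29 (replicate 2 of 4), the 6-month library 36 (replicate 2 of 2) and the 12-month library 24 (replicate 3 of 4). Among the Ki67- groups the most was 27 members (WT, 12 months, replicate 1 of 3), and APP/PS1 replicate 1 of 2 at 6 months held 26. High counts arise more easily in groups of 2 libraries. Each member was also set against its own median over the 42 libraries. In WT Ki67+ libraries 27 to 36 members lay above their median at 4 months, 9 to 14 at 6 months and 33 to 36 at 12 months. In APP/PS1 Ki67+ libraries the counts were 14 to 37, 6 to 11 and 24 to 37. In Ki67- libraries the count ran from 9 to 27. Neither kind of count was made over all genes, so neither is read as particular to the members.

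**Figure D4:**
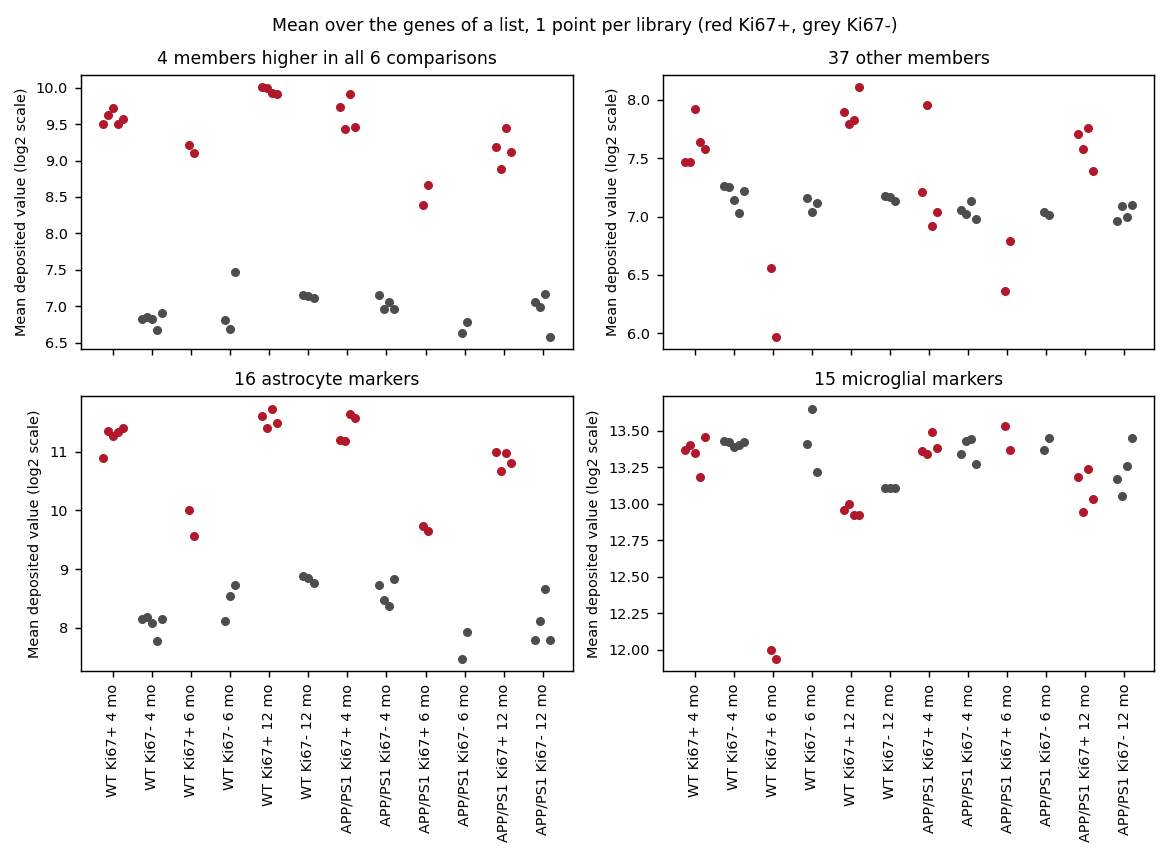
Mean level (log2-like scale) of the 4 members higher in every comparison, of the other 37 members, of 16 astrocyte markers and of 15 microglial markers, a point for each library of the 12 groups. The mean of the 37 members lies at 5.97 to 6.79 in the 4 Ki67+ libraries of 6 months and at 6.92 to 8.11 in the other Ki67+ libraries, and the 2 WT Ki67+ libraries of 6 months have the lowest microglial means, at 11.94 and 12.

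The 6-month Ki67+ libraries stood apart from the rest, so the counts that rest on them are given with their markers. The mean of the 37 members was 5.97 and 6.56 in the WT and 6.36 and 6.79 in the APP/PS1 Ki67+ libraries of 6 months, below all Ki67- libraries (6.96 to 7.26). In WT mice at that age 12 of 15 microglial markers were lower in Ki67+ cells and none higher, with a median difference of -1.75, and their mean was 11.94 to 12 against 12.92 to 13.65 in all other groups. In APP/PS1 mice at that age none of the 15 was called, while all 12 oligodendrocyte markers were higher (median difference 3.04), with means of 11.59 to 12.51 in Ki67+ against 8.56 to 8.63 in Ki67- libraries. In WT mice at 6 months 2 of those 12 were higher, with means of 10.88 to 11.21 against 9 to 11.08, and in the libraries of 4 and 12 months the mean ran from 7.15 to 9.69. The part of these markers in the neuronal genes' levels was not tested. Without WT Ki67+ replicate 2, 9 members were lower in WT mice at 6 months in place of 16, and without WT Ki67+ replicate 1, 3 were higher in place of 5. At the same age 3 were higher in APP/PS1 mice in place of 5 without Ki67- replicate 1 or Ki67+ replicate 2.

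Whether the Ki67 difference changed with age was tested by interaction within each genotype, on libraries that also enter the comparisons above. In WT mice the Ki67 difference at 6 months was below that at 4 months for 12 members (4.18% of all genes) and above it for none (2.36%), among them Snap25 (-3.99 ± 0.67, adjusted p = 0.00116, limma), Ndrg4 (-2.48 ± 0.37, adjusted p = 4e-04), Gria2 (-2.30 ± 0.37, adjusted p = 0.000777), Meg3 (-4.15 ± 0.88, adjusted p = 0.00662) and Dclk1 (-1.89 ± 0.42, adjusted p = 0.00933). Without WT Ki67+ replicate 2 of 6 months, 5 members were called, and Meg3 (-2.55, adjusted p = 0.111) and Dclk1 (-1.56, adjusted p = 0.0822) were not, while Snap25, Syt1, Gria2 and Ndrg4 kept their calls without any 1 library. Lsamp, Map2 and Gria1 were not called. Between 12 and 4 months no member was called in WT mice (limma; 5 at an unadjusted p below 0.05, 3.19% of all genes called) or in APP/PS1 mice (limma; 7 at an unadjusted p below 0.05, 0.00522%). In APP/PS1 mice the 6-month difference was called for Elavl3 alone (1.92 ± 0.36, adjusted p = 0.00648, 1.28% of all genes), and not without Ki67- replicate 1 or Ki67+ replicate 2 of 6 months (highest adjusted p = 0.0562).

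The age comparisons within a sort placed these changes in the Ki67+ cells. In WT Ki67+ cells 25 members were lower at 6 than at 4 months (15.1% of all genes) and 1, Elavl3, was higher (7.87%), by 1.35 ± 0.24 (adjusted p = 0.000453, limma). Snap25 fell by 3.96 on the log2 scale (SE 0.50, adjusted p = 1.14e-05) and Ndrg4 by 2.53 (SE 0.28, adjusted p = 2.09e-06). Without WT Ki67+ replicate 2 of 6 months, 15 of the 41 members were called in place of 26. In WT Ki67- cells no member was called (limma; 0 at an unadjusted p below 0.05, 0.0940% of all genes). In APP/PS1 Ki67+ cells 11 were lower at 6 months (5.78%), Npy (-3.23 ± 0.83, adjusted p = 0.0137) and Dclk1 (-2.03 ± 0.33, adjusted p = 0.000341) among them, and Elavl3 was higher (5.54%), by 2.26 ± 0.25 (adjusted p = 5.14e-06). Without APP/PS1 Ki67+ replicate 1 of 6 months, 4 were called in place of 12, and Npy was not (highest adjusted p = 0.118). In APP/PS1 Ki67- cells none was (limma; 2 at an unadjusted p below 0.05, 0.172%).

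Between 12 and 4 months few members differed. Slc17a7 was higher in WT Ki67+ cells (1.36 ± 0.30, adjusted p = 0.0257, limma; 1.33% of all genes called), though not without replicate 1 or 4 of 12 months (highest adjusted p = 0.0618), and Dclk1 in WT Ki67- cells (1.14 ± 0.28, adjusted p = 0.0123; 9.20%). In APP/PS1 Ki67+ cells Syt1 (1.46 ± 0.29, adjusted p = 0.00525) and Syn2 (1.45 ± 0.34, adjusted p = 0.0171) were higher and Dclk1 (-1 ± 0.27, adjusted p = 0.0351) and Lsamp (-0.89 ± 0.23, adjusted p = 0.028) lower, where 4.27% of all genes were called. Syt1 alone of these 4 kept its call without any 1 library, and the others reached adjusted p = 0.0601, 0.107 and 0.0603 at the highest. In APP/PS1 Ki67- cells no member was called (limma; 2 at an unadjusted p below 0.05, 3.21%).

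Genotype changed few members within a sort. In Ki67+ cells none differed between APP/PS1 and WT mice at 4 months (limma; 8 at an unadjusted p below 0.05, 0.0627% of all genes called). At 6 months 2 did (8.63%): Gria1 was lower in APP/PS1 cells, at 7.66 and 8.01 against 8.94 and 9.55 (-1.41 ± 0.37, adjusted p = 0.0189), and Ndrg4 higher, at 7.04 and 6.92 against 5.74 and 5.48 (1.37 ± 0.34, adjusted p = 0.0119). Neither was called without WT Ki67+ replicate 2 or APP/PS1 Ki67+ replicate 1 (highest adjusted p = 0.182 and 0.0942).

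At 12 months 6 members were lower in Ki67+ cells of APP/PS1 than of WT mice (4.97% of all genes), and none was higher (4.27%). Lsamp was at 9.47, 9.5, 9.68 and 9.61 in APP/PS1 and at 10.58, 10.56, 10.83 and 10.41 in WT libraries (-1.03 ± 0.23, adjusted p = 0.00795, limma). Dclk1 was at 9.81, 9.78, 10.28 and 9.62 against 11.06, 10.82, 11.08 and 10.97 (-1.11 ± 0.27, adjusted p = 0.0124), and Slc17a7 at 7.46, 7.16, 7.61 and 6.73 against 8.5, 8.11, 8.62 and 8.82 (-1.28 ± 0.32, adjusted p = 0.0145). The genotypes did not overlap for these 3 genes, which kept their calls without any 1 library. Syn1 (-1.18 ± 0.35, adjusted p = 0.034), Stmn3 (-1.11 ± 0.33, adjusted p = 0.0367) and Nrgn (-0.64 ± 0.19, adjusted p = 0.0393) were lost without any of 7, 5 and 6 single libraries (highest adjusted p = 0.0712, 0.105 and 0.103), and 3 members in all were called without WT replicate 1, WT replicate 2, APP/PS1 replicate 1 or APP/PS1 replicate 4. Of the 16 astrocyte markers, 4 were lower in the same comparison and all 16 differences were negative, and their mean was 10.67 to 11 in APP/PS1 against 11.41 to 11.73 in WT libraries. Their part in the result was not tested.

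In Ki67- cells no member differed by genotype at 4 months (limma; 1 at an unadjusted p below 0.05, 0% of all genes called) or 6 months (limma; 3 at an unadjusted p below 0.05, 0.0627%). At 12 months 2 were lower in APP/PS1 cells (5.97% of all genes) and none was higher (6.69%). They were Dclk1, at 7.53, 6.86, 7.32 and 6.84 against 8.53, 8.5 and 8.42 (-1.35 ± 0.29, adjusted p = 0.00345), and Grin1, at 6.7, 6.56, 6.91 and 6.7 against 7.56, 7.55 and 7.5 (-0.82 ± 0.17, adjusted p = 0.00234). The genotypes did not overlap for either, and both calls held without any 1 library. The 3 WT libraries here are those that were unusually alike, so leaving 1 of them out tests little. Dclk1 was thus lower in APP/PS1 mice at 12 months in both sorts. In the same Ki67- comparison 5 of 16 astrocyte markers were lower and none higher, and their part in the result was not tested.

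The Ki67 difference itself differed between the genotypes for 1 member, Syp at 12 months (-1.53 ± 0.46, adjusted p = 0.0481, limma; 6.50% of all genes called), whose APP/PS1 libraries at 7.11, 7.2, 7.28 and 6.53 in Ki67+ and 7.32, 7.12, 6.63 and 7.55 in Ki67- cells overlapped while the WT libraries did not. The call was lost without any of 12 libraries (highest adjusted p = 0.0842). No member was called at 4 months (limma; 4 at an unadjusted p below 0.05, 0% of all genes called) or 6 months (limma; 7 at an unadjusted p below 0.05, 2.70%). Calls made in 1 genotype alone, such as those of Rbfox3, are thus not shown to differ between the genotypes.

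The 12-month libraries carried sample-sheet numbers in 2 ranges, 12 to 19 and 25 to 31, each with both sorts. The labels do not say what these ranges stand for. The median difference of the 41 members was 0.92 and 1.17 in the WT and 0.66 and 0.63 in the APP/PS1 libraries of these ranges, with 32 or 33 members positive in each. The second WT range held 1 Ki67- library, of the group whose libraries were unusually alike, so the 2 WT values are not an independent check. Snap25 differed by 1.51 and 2.21 in WT and by 2.3 and 1.3 in APP/PS1 mice, and Camk2b by -0.79, -0.76, -0.86 and -0.99 in the same order.

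Another 145 genes known from neurons, grouped by function and measured in the same libraries, also split. In the average of the 6 comparisons 54 were higher and 40 lower in Ki67+ cells (31.3% and 29.2% of all genes), with a median of 0.13. By age, the WT comparisons had 41, 23 and 49 higher and 11, 41 and 19 lower, and the APP/PS1 comparisons 25, 19 and 34 higher and 7, 4 and 2 lower (the same shares of all genes as given above for each). Of 27 further vesicle and active zone genes 8 were higher and 5 lower, led by Vamp1, a vesicle SNARE (0.97 ± 0.11, adjusted p = 7.32e-08, limma), and Pclo, the active zone scaffold piccolo (-1.03 ± 0.13, adjusted p = 3.89e-07). Of 29 postsynaptic and receptor genes 9 were higher and 12 lower, and Lrrtm2, a synapse organiser, had the lowest p of those that were lower (-0.88 ± 0.10, adjusted p = 7.46e-08, limma).

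Of 20 axon and cytoskeleton genes 10 were higher and 3 lower, led by Kif1a, a kinesin that carries vesicle precursors (1.96 ± 0.13, adjusted p = 4.26e-11, limma), and Spock1 (-0.64 ± 0.14, adjusted p = 0.000351). Ion channels and pumps leaned lower, 2 higher and 7 lower of 17, led by Cacna2d1, a calcium channel subunit (0.89 ± 0.08, adjusted p = 1.8e-09), and Scn2a, a sodium channel (-0.77 ± 0.08, adjusted p = 4.46e-08). Of 17 adhesion genes 11 were higher and 3 lower, led by Ntm and Opcml, which belong to the same immunoglobulin family as Lsamp: Ntm was higher by 1.35 ± 0.08 (adjusted p = 2.36e-12, limma) and Opcml was lower (-0.79 ± 0.08, adjusted p = 1.23e-08). A list of neuronal RNA-binding proteins and transcription factors that also held the long noncoding RNA Miat (7 higher and 6 lower of 17) was led by Miat (0.95 ± 0.13, adjusted p = 1.66e-06) and Dlx1 (-0.62 ± 0.13, adjusted p = 0.000377), and secretory granule and peptide genes (7 higher and 4 lower of 18) by Scg3 (1.99 ± 0.13, adjusted p = 2.08e-11) and Pdyn (-0.66 ± 0.09, adjusted p = 2.27e-06).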

How the data were processed

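RNA-seq reads of 42 libraries were processed by the authors with bcl2fastq 2.20, kallisto 0.43.1 (GRCm38) and DESeq2, and 10 surrogate variables were removed from the normalised values. The authors deposited 1 table of 19151 genes on a log2-like scale, treated here as a score: it holds no counts, so depth and sampling noise were not analysed. Groups came from the sample labels. The labels do not tie libraries to animals, so p-values measure the spread between libraries, which may be partly technical.

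One mean per group was fitted to all libraries and genes with limma 3.58.1 in R 4.3.3. The table's deviations from the group means lacked 10 of 30 directions, so 20 residual degrees of freedom were used (prior 2.63). There were 28 contrasts, Benjamini-Hochberg adjustment over all genes, a threshold of 0.05 and no filter on low values. Scripts were tested on simulated data. Every member was accounted for by role, with fuller values for the largest and smallest average difference of each role and for members that were lower on average, changed sides, or were called by genotype or interaction. Members and gene lists were chosen with earlier results of these data known. Of further neuronal lists the called gene with the lowest p in each direction was named, and of marker lists the 2 with the highest mean and the one with the widest difference. Some genes that this rule selects are not reported here. Alternatives changed the filter, degrees of freedom, prior, scaling and libraries. Promoter windows came from RefSeq (GRCm38.p6) and gene spans from GENCODE M21. Figures were drawn with matplotlib 3.10.9 in Python 3.11.15.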

Additional observations from a re-analysis of the deposited data

Results flagged for a closer look

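Of 287 groups of 4 or 5 libraries tested for a library far from its group (Dixon's test), 29 held one, 20 high and 9 low, and chance sets apart about 1 in 20 groups. APP/PS1 Ki67+ replicate 2 of 4 months was the high library for 4 genes: Syn1 at 8.37 (next 7), Nefl at 7.06 (next 6.29), Gap43 at 7.4 (next 6.17) and Snhg11 at 9.37 (next 7.46). In the same group Gria1 stood at 9.15 in replicate 1 (next 8.16) and Thy1 at 7.81 in replicate 4 (next 6.99). Npy stood at 10.74 in WT Ki67+ replicate 2 of 4 months (next 7.34), where Gad1 was low at 6.57 (next 7.24). Among Ki67+ libraries of 12 months, APP/PS1 had Snap25 low at 7.85 in replicate 4 (next 9.01), Syt1 low at 8.02 in replicate 2 (next 8.47) and Cck low at 7.37 in replicate 3 (next 7.83), and WT had Grin2b high at 7.82 in replicate 4 (next 7.67) and Elavl3 low at 6.81 in replicate 3 (next 6.97).

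Among WT Ki67- libraries of 4 months, Syn2 at 7.29 (next 6.66) and Rbfox1 at 7.63 (next 7.23) were high in replicate 3, Elavl4 was low at 7.6 in replicate 4 (next 8.07), and in replicate 5 Stmn3 was low at 6.82 (next 7.18) and Elavl3 high at 7.99 (next 7.66). Among APP/PS1 Ki67- libraries of 4 months, replicate 1 had Syn2 low at 5.98 (next 6.44), Nefl high at 7.18 (next 6.61) and Npy high at 8.03 (next 6.95), and replicate 3 had Nrgn high at 6.58 (next 6.32) and Tubb3 high at 7.35 (next 6.76). Among those of 12 months, Elavl3 was high at 8.19 in replicate 1 (next 7.6), Syt1 high at 6.99 (next 6.57), Nefl high at 6.77 (next 6.52) and Thy1 low at 6.79 (next 6.89) in replicate 2, Map2 high at 7.91 in replicate 3 (next 6.75) and Map1b high at 8.39 in replicate 4 (next 7.6).

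A test of the difference between groups (limma, adjusted over all genes) set 14 values apart. In WT mice the Ki67 difference of 6 months minus that of 4 months was -3.99 for Snap25, -2.37 for Syt1, -2.3 for Gria2, -0.94 for Grin1, -1.86 for Camk2a, -1.41 for Nrgn, -1.74 for Stmn3, -1.89 for Dclk1, -1.72 for Rbfox3, -4.15 for Meg3, -2.88 for Snhg11 and -2.48 for Ndrg4. For Elavl3 it was 1.92 in APP/PS1 mice. At 12 months the Ki67 difference of APP/PS1 minus that of WT mice was -1.53 for Syp.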

How the results depend on the processing

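No paired analysis was possible because the labels give each library its own number and tie no Ki67+ library to a Ki67- library. Lsamp, Dclk1, Map2 and Gria1 kept their direction and call in the average under each alternative run. Counts that moved by over 1.5 times follow, as members called. Shares of all genes also changed between runs and are given where at hand. Counts here and below without such a share are not read as changes particular to the members. With the removed directions not counted as spent, 13 were called in both directions over the 6 Ki67 comparisons (6.27% of all genes). In APP/PS1 mice 11 were higher at 4 months (17.4%), 8 lower at 6 (6.81%) and 4 lower at 12 months (12.6%). In the same run genotype gave 4, 9 and 13 in Ki67+ cells at 4, 6 and 12 months, and genotype by Ki67 5 and 4 at 6 and 12 months. There age by Ki67 gave 22 and 4 in WT and 5 and 2 in APP/PS1 mice (6 and 12 versus 4 months). The comparison of 12 with 4 months gave 8 in WT Ki67+, 3 in WT Ki67-, 13 in APP/PS1 Ki67+ and 1 in APP/PS1 Ki67- cells. With the libraries of 1 age only, 1 was lower in APP/PS1 mice at 6 months, 27 higher and 4 lower at 12 months, genotype gave 1 and 17 in Ki67+ cells at 4 and 12 months and 9 in Ki67- cells at 12 months, and genotype by Ki67 7 at 12 months. With library medians subtracted, 4 were lower in APP/PS1 mice at 6 and 4 at 12 months, age by Ki67 gave 2 in APP/PS1 mice at 6 months, and 12 versus 4 months 2 in WT Ki67- and 7 in APP/PS1 Ki67+ cells. With genes filtered to 14910 (40 members) by a group mean of 7 or more, 1 and 0 were lower in APP/PS1 mice at 4 and 12 months (9.24% and 7.24% of all genes). Under that filter age by Ki67 gave 2 in WT at 12 and 2 in APP/PS1 mice at 6 months, and WT Ki67- cells gave 2. With a mean of at least 7 over all libraries (11663 genes, 30 members), 1 WT and 1 APP/PS1 member were lower at 4 months (15.1% and 9.83% of all genes) and 5 on average (30.7%). For those genes genotype at 12 months gave 3 in Ki67+ and 1 in Ki67- cells, and age by Ki67 1 in WT at 12 and 2 in APP/PS1 mice at 6 months. For 12 versus 4 months they gave 0 in WT Ki67+ and 2 in WT Ki67- cells. With limma's trend and robust options, 0 were lower in APP/PS1 mice at 12 months and age by Ki67 gave 1 in WT mice at 12 months. Without the 2 WT Ki67+ libraries of 6 months (chosen after seeing the data), 4 were lower in APP/PS1 mice at 6 months, age by Ki67 gave 1 in WT mice at 12 months, and 12 versus 4 months 3 in WT Ki67- and 7 in APP/PS1 Ki67+ cells. The cause was not tested.

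The average without the 6-month libraries (chosen after seeing the data) turned the sign of Grin2b (0.1), Stmn3 (0.76), Nefl (0.14), Gap43 (0.15), Elavl3 (-0.51), Rbfox1 (0.22), Celf4 (0.48), Snhg11 (0.64) and Cck (0.38), and subtracting library medians that of Elavl3 (-0.06). Leaving out each library in turn gave averages from -0.13 to 0.12 for Stmn3, -0.08 to 0.07 for Rbfox1, -0.09 to 0.04 for Celf4, -0.32 to 0.09 for Snhg11 and -0.27 to 0.01 for Cck. It gave 2 to 4 members higher in every Ki67 comparison, 5 to 11 called in both directions over the 6 comparisons, 3 to 6 higher and 9 to 19 lower in WT mice at 6 months, 1 to 4 lower in WT mice at 12 months, 1 to 3 lower in APP/PS1 mice at 4 months, 3 to 5 higher and 1 to 4 lower at 6 months and 0 to 3 lower at 12 months. It gave 0 to 2, 0 to 5 and 3 to 9 by genotype in Ki67+ cells at 4, 6 and 12 months, 0 to 3 and 0 to 2 for genotype by Ki67 at 6 and 12 months, 5 to 14 and 0 to 2 for age by Ki67 in WT and 0 to 2 and 0 to 1 in APP/PS1 mice. For age it gave 15 to 33 and 0 to 2 in WT Ki67+, 1 to 3 in WT Ki67- (12 months), and 4 to 14 and 1 to 8 in APP/PS1 Ki67+ cells (6 and 12 versus 4 months). Arms left with 1 library were assumed to vary like the other groups. Depth is not known, so none of these values carries a counting error.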

Other observations

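Other cell types' markers differed in how they followed Ki67 (average of the 6 comparisons, limma, adjusted over all genes). Of 15 microglial markers 2 were higher and 10 lower in Ki67+ cells, with Itgam, which encodes CD11b of the sort, at -0.78 ± 0.09 (adjusted p = 7.25e-08) and C1qb, of complement, at -0.43 ± 0.08 (adjusted p = 0.000135). All 16 astrocyte markers were higher, Clu by 3.48 ± 0.18 (adjusted p = 9.11e-13) and Slc1a3 by 0.70 ± 0.11 (adjusted p = 6.45e-06) beside Slc1a2 above. Of 12 oligodendrocyte markers 4 were higher, with Cnp at -0.40 ± 0.19 (adjusted p = 0.0806). Of 8 oligodendrocyte precursor markers 5 were higher and 2 lower, with the transcription factors Olig1 at 1.93 ± 0.15 (adjusted p = 4.35e-10) and Sox10 at 0.68 ± 0.15 (adjusted p = 0.000398).

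Of 15 endothelial and mural markers 8 were higher and 1 lower, and they did not share a direction: Cldn5, a tight junction protein, was at 2.15 ± 0.20 (adjusted p = 7.96e-09, limma), Pecam1 at -1.32 ± 0.11 (adjusted p = 5.42e-10) and Flt1 at 0.13 ± 0.22 (adjusted p = 0.63). Of 8 ependymal and choroid plexus markers 2 were higher and 1 lower, with Ttr, transthyretin, at 2.10 ± 0.37 (adjusted p = 4.5e-05) and Folr1 at -0.05 ± 0.20 (adjusted p = 0.826). Of 12 neural progenitor and neuroblast markers 5 were higher, with the intermediate filament Nes at 1.55 ± 0.19 (adjusted p = 3.47e-07), Tubb2b at 0.16 ± 0.19 (adjusted p = 0.471) and Cd24a at 0.08 ± 0.22 (adjusted p = 0.77). Of 14 peripheral immune markers 4 were higher and 5 lower, with the neutrophil genes S100a8 at -2.10 ± 0.58 (adjusted p = 0.00345) and S100a9 at -1.79 ± 0.49 (adjusted p = 0.00334). Of 18 cell cycle genes 12 were higher, with Mcm3, of the replicative helicase, at 0.88 ± 0.14 (adjusted p = 9.47e-06) and Pcna at -0.34 ± 0.16 (adjusted p = 0.0784).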
